A study of Mus musculus with 2 samples.

Results

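The regions described are the open chromatin around Tbx21 and Eomes, the genes of the T-box transcription factors T-bet and Eomesodermin, in mouse T cells. The labels give the assay as ATAC-seq, in which a transposase cuts accessible DNA and stretches with many cuts are called as peaks. Every peak whose summit lay in the body of either gene or within 50 kb of it was taken. This gave 26 of the 78016 peaks of replicate 1 and 25 of the 74653 peaks of replicate 2 on chromosomes 1 to 19, X and Y. Peaks of the 2 libraries that overlapped by at least 1 bp were merged into 1 region placed at its stronger summit, which left 30 of 84666 regions, 18 around Tbx21 and 12 around Eomes. The series held 1 group, primary T cells of mouse strain C57BL/6NJ, with no treatment, genotype change or time given and with age unknown. The labels call the 2 libraries biological replicates but give them the same donor record, so the spread between them may be technical. The labels point to a differentiation protocol for CD4+ T cells. The peak names contain "Th0", "ASTARR.insert" and "masked", and no label gives the meaning of these words. Cell state and library type are thus taken from the labels only. Whether masking bears on the peak edges and gaps described below was not tested. There was no control group, so values were compared between the libraries and with all other regions, and no test was run.

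T-box factors share a DNA-binding domain first described in Brachyury. T-bet directs CD4+ T cells to the T helper 1 programme, in which interferon gamma is made, and its gene is switched on by interferon gamma and by interleukin 12. Eomesodermin acts with T-bet in CD8+ T cells and natural killer cells, where both act on genes of cell killing and of the response to interleukin 15. A far upstream enhancer of mouse Tbx21 that responds to both cytokines is known. Whether any region below is that element was not tested.

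In GENCODE mouse release M21 on mm10, Tbx21 (ENSMUSG00000001444.2) lies on the reverse strand at chr11:97098071-97115331 and has 1 protein-coding start. Its window ran from chr11:97048071-97165331 and also held Osbpl7, Tbkbp1 and the 3′ part of Kpnb1. Eomes (ENSMUSG00000032446.14) lies on the forward strand at chr9:118478212-118486132 and has 3 protein-coding starts. Its window ran from chr9:118428212-118536132 and also held the antisense RNA gene Gm33460 and the 5′ part of Golga4. A region counted as promoter where its summit was within 1000 bp of a protein-coding start of any gene, and as distal otherwise. Distances are from the summit to the first start of the named gene, along its direction of transcription.

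The sequences below are those on which the results turn. They are the RefSeq promoters of both genes (GRCm38.p6, 250 bases before to 50 after the start, in the direction of the gene), and the 100 bases at the summits of 6 distal regions (mm10). Capitals mark matches to T-box GGTGTGA, AP-1 TGANTCA, RUNX TGTGGT, ETS AGGAAG, STAT TTCNNNGAA, the CTCF core motif and, in the promoters, SP/KLF GGGCGG, on either strand. The first pair of distal sequences is shown because their q values were high for their signal. The next pair had the CTCF match and the 2 AP-1 matches. The Eomes sequences hold the T-box match and a region whose summits differed between libraries.
Tbx21 promoter (chr11:97115282-97115581, reverse strand): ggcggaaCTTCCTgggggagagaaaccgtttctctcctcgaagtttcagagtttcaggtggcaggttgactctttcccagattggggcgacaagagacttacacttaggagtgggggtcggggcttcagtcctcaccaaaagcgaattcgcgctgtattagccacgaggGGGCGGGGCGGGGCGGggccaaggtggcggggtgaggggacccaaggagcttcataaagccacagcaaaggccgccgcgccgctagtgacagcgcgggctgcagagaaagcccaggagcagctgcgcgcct
Eomes promoter (chr9:118477939-118478238, forward strand): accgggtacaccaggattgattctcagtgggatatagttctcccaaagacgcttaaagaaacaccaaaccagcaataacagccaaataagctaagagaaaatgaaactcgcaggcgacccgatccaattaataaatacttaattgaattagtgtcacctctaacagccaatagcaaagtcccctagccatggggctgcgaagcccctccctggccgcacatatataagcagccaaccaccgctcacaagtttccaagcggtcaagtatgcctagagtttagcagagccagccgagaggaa
Tbx21 region 11.8 kb upstream (chr11:97127039-97127138, forward strand): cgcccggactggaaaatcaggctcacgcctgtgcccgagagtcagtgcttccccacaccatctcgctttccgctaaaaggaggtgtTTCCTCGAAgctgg
Tbx21 region 13.8 kb upstream (chr11:97129085-97129184, forward strand): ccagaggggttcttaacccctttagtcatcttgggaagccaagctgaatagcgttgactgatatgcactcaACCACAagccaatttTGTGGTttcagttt
Tbx21 second intron (chr11:97101871-97101970, forward strand): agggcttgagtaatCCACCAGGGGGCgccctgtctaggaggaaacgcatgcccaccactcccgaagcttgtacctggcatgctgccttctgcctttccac
Tbx21 region 31.4 kb past the start (chr11:97083885-97083984, forward strand): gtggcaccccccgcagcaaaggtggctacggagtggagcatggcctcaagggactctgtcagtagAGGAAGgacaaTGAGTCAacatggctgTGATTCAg
Eomes region 34.6 kb past the start (chr9:118512807-118512906, forward strand): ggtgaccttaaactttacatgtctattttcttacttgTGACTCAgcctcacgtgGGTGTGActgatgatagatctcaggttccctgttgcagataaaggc
Eomes region 11.4 kb past the start, summit of replicate 2 (chr9:118489570-118489669, forward strand): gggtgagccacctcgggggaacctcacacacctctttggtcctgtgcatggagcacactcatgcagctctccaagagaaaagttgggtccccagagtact
Eomes region 11.4 kb past the start, summit of replicate 1 (chr9:118489766-118489865, forward strand): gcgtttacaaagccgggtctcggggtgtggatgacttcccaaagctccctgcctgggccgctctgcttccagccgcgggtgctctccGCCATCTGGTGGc

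Of the 30 regions, 21 had a peak in both libraries, beside 79.0% of all merged regions. The Tbx21 window held 11 of them, 2 promoter and 9 distal, and the Eomes window held 10, 3 promoter and 7 distal. These classes use protein-coding starts. With starts of genes of every type, 7 regions were distal around Tbx21 and 5 around Eomes. Around Tbx21, 11 of 15 peaks of replicate 1 (73.3%, exact 95% interval 44.9 to 92.2%) overlapped a peak of replicate 2, beside 86.5% of all its peaks. In the other direction, 11 of 14 peaks of replicate 2 did so (78.6%, 49.2 to 95.3%), beside 90.3% of all its peaks. Around Eomes it was 10 of 11 peaks in each library (90.9%, 58.7 to 99.8%). All 4 intervals, which cover counting error only, contain the value of the whole library.

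Peaks were denser in both windows than in the genome. The genome values span whole chromosomes and not windows around genes, which are compared further below by distal regions. Replicate 1 had 12.8 peaks per 100 kb around Tbx21 and 10.2 around Eomes, against 2.86 over the genome. Replicate 2 had 11.9 and 10.2, against 2.74. Peaks covered 10.2% of the Tbx21 window in replicate 1 and 9.14% in replicate 2, and 8.36% and 7.93% of the Eomes window, where they covered 2.13% and 2.06% of the genome.

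**Figure D1:**
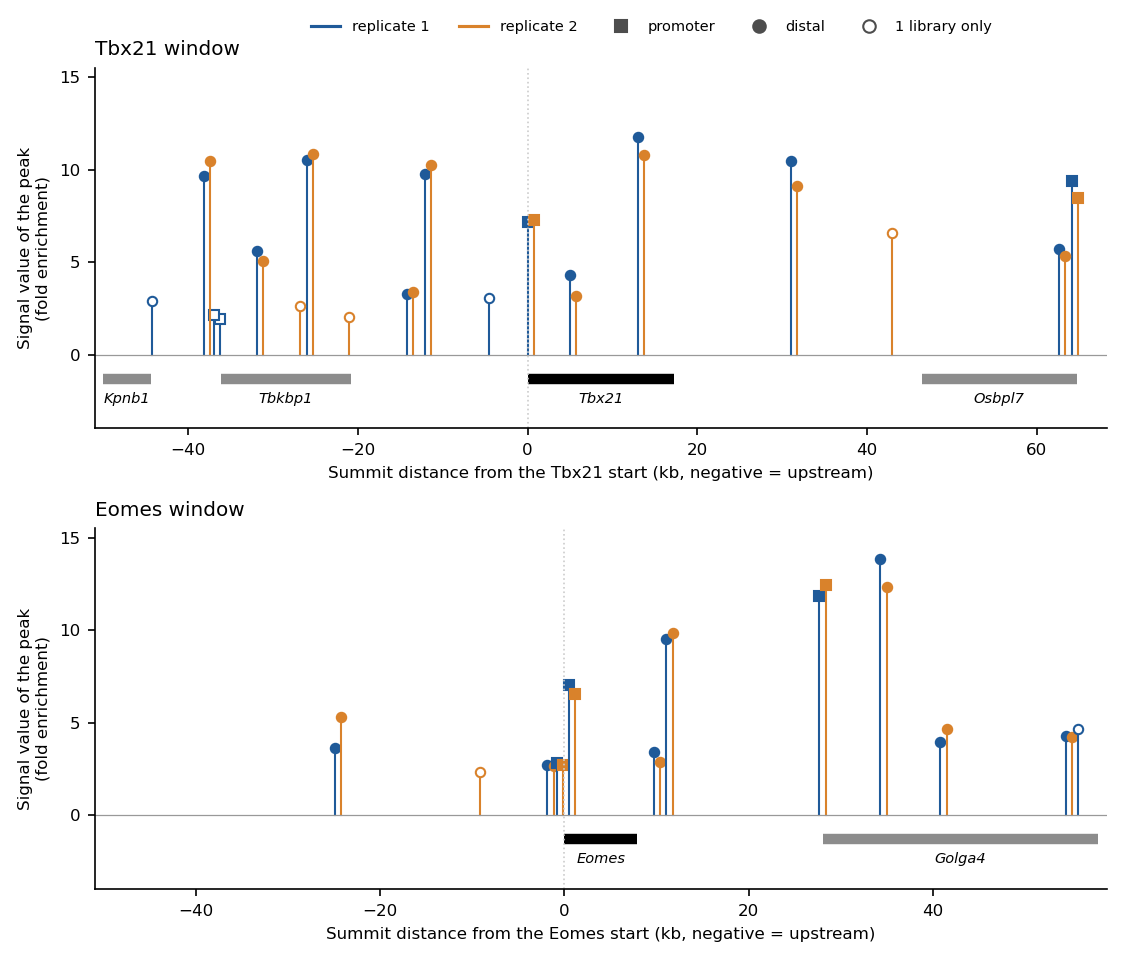
Peaks of both libraries in the Tbx21 window (upper panel) and the Eomes window (lower panel). The horizontal axis is the summit distance from the gene's first start in kb along its transcription and the vertical axis is the deposited signal value, read as fold enrichment; replicate 1 is blue and replicate 2 orange, squares are promoter regions, circles are distal, open symbols were found in 1 library, black bars are the gene itself and grey bars are other coding genes. Strong distal peaks lie on both sides of Tbx21, while all strong ones around Eomes lie past the gene.

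The promoter of Tbx21, the T-bet gene, was open in both libraries, but at a signal below that of most open promoters. Its region, chr11:97114402-97116259, covered the start and reached about as far on either side. The signal value, taken as a fold enrichment, was 7.17 in replicate 1 and 7.26 in replicate 2, a mean of 7.21 ± 0.063 (SD, n = 2 libraries). The −log10 q is the peak caller's measure of how far a peak exceeds background after correction for multiple tests, and it reached 54.7 in replicate 1 and 43.0 in replicate 2. Both libraries placed the left edge of the peak at the same base, 97114402. At least 1 such identical edge was found in 10.4% of all shared regions made of 1 peak in each library. The summit lay 364 bp past the start, in the coding sequence of exon 1, and the summits of the libraries were 150 bp apart. The 200 bases around it were 72.0% G and C and held 22 CpG, against medians of 65.0% and 16 CpG in all shared promoter regions.

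Eomes had 3 coding starts, and open chromatin near them was split into a strong and a weak region. The strong region, chr9:118478436-118479672, covered the third start, 118478861, with its summit 162 bp past it in the coding sequence of exon 1. Its signal was 7.01 in replicate 1 and 6.57 in replicate 2 (mean 6.79 ± 0.31, SD, n = 2 libraries), with a −log10 q of 66.5 and 45.4. It was rich in G and C (75.5%) and held 27 CpG in 200 bases. The weak region, chr9:118477093-118478220, had its summit 470 bp before the first start. There the signal was 2.84 in replicate 1 and 2.71 in replicate 2, and the −log10 q 9.45 and 6.24. Its right edge lay at the same base in both libraries, 8 bp past the first start, 118478212. Between the regions were 215 bp in replicate 1 and 276 bp in replicate 2 without a peak, and the second start, 118478344, lay in that gap in both. Just upstream, a distal region at chr9:118476313-118477091 had a signal of 2.70 and 2.63 and a −log10 q of 7.84 and 5.42, with summits 213 bp apart. The rise at the Eomes start was thus on the gene side, over a CpG-rich first exon, and weak before it in both libraries.

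The RefSeq promoters printed above differed in composition, but they cover unlike parts of the open chromatin. That of Tbx21 lies inside its promoter region. The Eomes promoter lies at the first start and ends before the strong region. That of Tbx21 was 62.0% G and C with 21 CpG, and that of Eomes 47.3% with 10 CpG, against medians of 52.7% and 7 CpG over 27025 promoters of the same length. The Tbx21 promoter held 3 SP/KLF matches, each sharing 1 base with the next, and 1 ETS match, near its 5′ end, which 35.9% and 35.1% of promoters hold at least once. It also held the NF-kB letters GGNNNTTCC and the E-box CAGCTG once each, found in 18.4% and 16.1% of promoters. The Eomes promoter held none of the marked motifs, and 1 match each to NFAT TGGAAA and IRF GAAANNGAA (21.5% and 8.57% of promoters). Neither held the T-box, AP-1, RUNX or STAT letters, which 3.96%, 7.93%, 16.9% and 8.47% of promoters hold. Such matches describe the letters and do not show that a factor bound.

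Upstream of Tbx21, the region 11.8 kb before the start (chr11:97126596-97127585) had the highest −log10 q of either window in both libraries. Its signal was 9.78 in replicate 1 and 10.3 in replicate 2 (mean 10.02 ± 0.34), and its −log10 q was 311 and 251. By signal alone it ranked 4 of 11 in its window in each library. Over 5875 shared regions of like signal (mean within 0.1 on the log2 scale), the median −log10 q came to 70.9 for replicate 1 and 50.9 for replicate 2, and 4.22% and 2.47% of them had a higher one. Both libraries placed its summit on the same base, in intergenic DNA that was 65.0% G and C with 13 CpG in 200 bases, close to the median of promoter regions although no coding start lay near. The STAT match in its printed sequence began 36 bases after the summit and overlapped a match to the NF-kB letters, and an NFAT match lay on the other side of the summit.

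A weaker neighbour 13.8 kb before the start (chr11:97128733-97129274) had a signal of 3.30 in replicate 1 and 3.40 in replicate 2. Its −log10 q was 36.9 and 30.0, where 3187 shared regions of like signal had medians of 7.34 and 5.68, and 6.31% and 4.14% of them had a higher one. The summits again fell on the same base. Its sequence held 2 RUNX matches, on opposite strands, both after the summit. High q for a given signal was thus seen in both of these neighbouring regions and in both libraries.

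**Figure D2:**
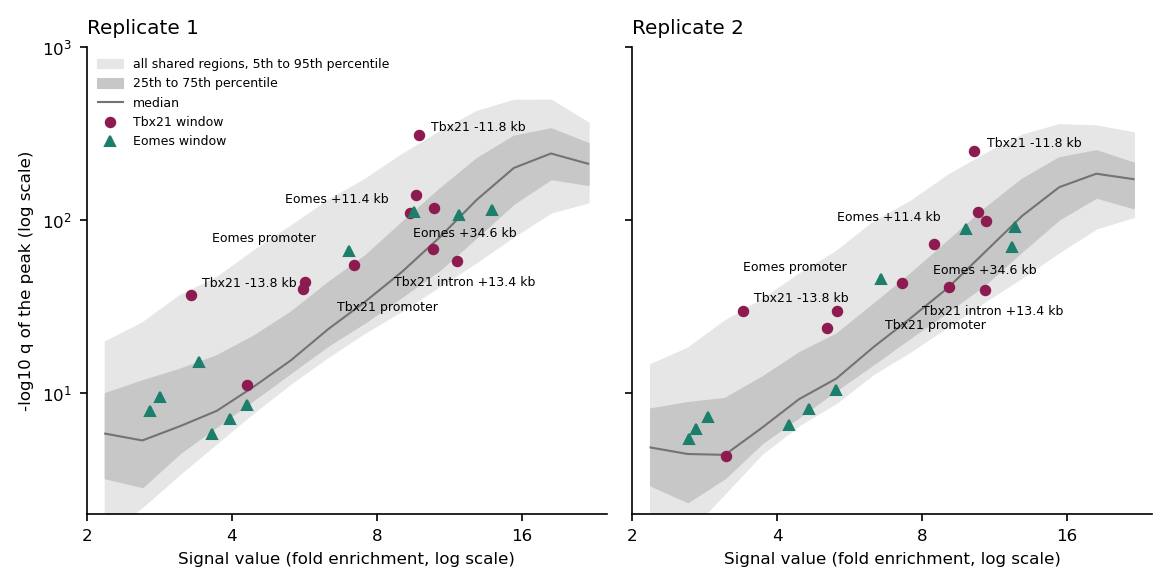
The −log10 q of a peak (vertical, log scale) against its signal value (horizontal, fold enrichment, log scale), in replicate 1 (left) and replicate 2 (right). Circles are regions of the Tbx21 window and triangles those of the Eomes window found in both libraries, and grey bands give the percentiles of all 66847 shared regions; the region 11.8 kb upstream of Tbx21, at 311 and 251, lies at the upper edge of the wide band in both panels, and the intronic region of Tbx21 lies low in it.

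Farther upstream lay the body of Tbkbp1, a gene for a protein that binds the kinase TBK1. By summit its own promoter was called in replicate 1 alone, as 2 weak regions: chr11:97150780-97151364 with a signal of 1.92 (−log10 q 3.32) and chr11:97151573-97152344 with 2.12 (4.73). A much stronger distal region, chr11:97152404-97153557, lay 37.7 kb before the Tbx21 start and 1560 bp before a Tbkbp1 start. Its signal was 9.66 in replicate 1 and 10.5 in replicate 2 (mean 10.1 ± 0.58), and its −log10 q 140 and 112. The strong signal at the 5′ side of Tbkbp1 thus lay outside its promoter as defined by summit. Its peak in replicate 2 did overlap the 1000 bp before that start. In an intron of Tbkbp1, 25.6 kb before Tbx21, chr11:97140494-97141504 had a signal of 10.5 and 10.8 (mean 10.7 ± 0.22) and a −log10 q of 118 and 98.5, with its summit on the same base in both libraries. A second intronic region 31.6 kb before Tbx21, chr11:97146628-97147385, reached 5.61 and 5.08, with a −log10 q of 39.9 and 23.7. The 2 stronger regions each had an AP-1 match within 25 bases of the summit and an NFAT match, and the weaker one had a CTCF match and an NF-kB match.

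Inside the Tbx21 gene, the region with the highest signal was intronic and not at the promoter. In the second intron, chr11:97101482-97102189, 13.4 kb past the start, had a signal of 11.7 in replicate 1 and 10.8 in replicate 2 (mean 11.3 ± 0.67), against 7.17 and 7.26 at the promoter. Its −log10 q of 58.4 and 39.4 was lower than that of most regions of like signal, 78.5% and 85.4% of which were higher. By −log10 q the promoter, at 54.7 and 43.0, was lower than this region in replicate 1 but higher in replicate 2. Its printed sequence held the CTCF core match, 25 to 36 bases before the summit; CTCF is the factor that binds at boundaries and loop anchors of chromosomes. In the first intron, 5404 bp past the start, chr11:97109641-97110087 was weak, at 4.29 and 3.14, with a −log10 q of 11.1 and 4.33. It had an AP-1 match, 2 to 8 bases before the summit.

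Past the 3′ end of Tbx21, 31.4 kb beyond its start and in intergenic DNA, chr11:97082876-97084396 had a signal of 10.5 in replicate 1 and 9.11 in replicate 2 (mean 9.79 ± 0.96). Its −log10 q was 68.4 and 41.0, and its sequence held 2 AP-1 matches and 1 ETS match after the summit. The last regions of that side belonged to Osbpl7, which encodes an oxysterol-binding protein. The Osbpl7 promoter, chr11:97050274-97051388, 64.5 kb past the Tbx21 start, had 9.36 and 8.48 with a −log10 q of 110 and 72.9. In an Osbpl7 intron, chr11:97052135-97052637 had 5.69 and 5.33 with a −log10 q of 44.0 and 29.7. It counted as distal, 1568 bp past a coding start, but lay 62 bp past another annotated Osbpl7 start. No contact or expression was measured, so which gene a distal region acts on is not known from these data, and the windows are positional only.

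In the Eomes window, all regions with a signal above 8 lay past the gene. The nearest, 11.4 kb past the first start in intergenic DNA, was chr9:118489119-118490132, just before the start of the antisense RNA gene Gm33460. Its signal was 9.55 in replicate 1 and 9.86 in replicate 2 (mean 9.70 ± 0.22), and its −log10 q was 112 and 88.9. Although signal and q were alike in the libraries, the summits lay 196 bp apart, where the median shift over all shared regions was 15 bp. The sequence at the summit of replicate 1 ended in a CTCF match, and that at the summit of replicate 2 held none of the marked motifs. Beside it, over the body of Gm33460 and 10.03 kb past the Eomes start, chr9:118487596-118488519 was weaker, at 3.42 and 2.88 with a −log10 q of 15.2 and 7.33.

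The region with the highest mean signal of either window was in an intron of Golga4, the gene of a golgin of the trans-Golgi network. It lay at chr9:118512414-118513216, 34.6 kb past the Eomes start and 1323 bp before the nearest Golga4 coding start. Its signal was 13.9 in replicate 1 and 12.3 in replicate 2 (mean 13.1 ± 1.10), in replicate 2 below the 12.5 of the Golga4 promoter. Its −log10 q was 114 and 69.6. It was one of the AT-richer members, with 45.5% G and C and 1 CpG in 200 bases, and its summits were 1 bp apart. Its sequence held an AP-1 match 7 to 13 bases before the summit, a T-box match 4 to 10 bases after it and a GATA match (AGATAA) farther on. It was the 1 region of 21 with the T-box letters at its strongest summit, and 1.79% of all shared regions hold them.

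The Golga4 promoter, 28.0 kb past the Eomes start (chr9:118505795-118507493), had a signal of 11.8 in replicate 1 and 12.5 in replicate 2 (mean 12.2 ± 0.44), with a −log10 q of 107 and 90.9. By signal, its intronic neighbour thus reached a level like that of this promoter in both libraries. The −log10 q of that neighbour, 114 and 69.6, was below the medians of all shared promoter regions, 152 and 107, as was that of the Golga4 promoter. Deeper in Golga4, chr9:118518978-118519490 had 3.97 and 4.67 with a −log10 q of 7.11 and 8.07, and chr9:118532681-118533530 had 4.30 and 4.24 with 8.50 and 6.57. Upstream of Eomes, the 1 shared region beyond those at the start was chr9:118453199-118453846, 24.6 kb before it, with 3.64 and 5.30 and a −log10 q of 5.80 and 10.5. Its signal had the largest ratio between libraries among the shared regions of both windows, while by −log10 q the region in the first intron of Tbx21 differed more. No distal summit fell in the Eomes gene itself, while Tbx21 had 2 in its introns.

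The 9 regions found in 1 library were mostly weak. Their median signal was 2.63, against 6.79 for the 21 shared ones, and over the whole series it was 3.31 against 7.22. The exception was chr11:97072639-97072909, 42.5 kb past the Tbx21 start, with 6.58 and a −log10 q of 15.7 in replicate 2 and no peak in replicate 1. The other 3 in replicate 2 were chr11:97136690-97136926 (2.05, −log10 q 2.10), chr11:97142268-97142655 (2.63, 5.87) and chr9:118468449-118468761 (2.33, 1.09). Besides the 2 regions at the Tbkbp1 start, those in replicate 1 were chr11:97119450-97119754 (3.07, 9.79), chr11:97159153-97159403 (2.91, 5.21) and chr9:118534231-118534601 (4.63, 9.95). No read depth came with the lists, so absence from one of them may be no more than a value just below the caller's threshold.

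No peak crossed an edge of either window with its summit outside. Just outside the Tbx21 window, the next regions were 4332 bp beyond the downstream edge (5.38 in replicate 1 and 2.97 in replicate 2) and 792 bp beyond the upstream edge (2.40 in replicate 2 alone). Just outside the Eomes window, the next upstream was 3885 bp beyond it (4.47 and 4.67) and the next downstream 38988 bp beyond it (13.5 and 11.5). At the limit of 1000 bp between promoter and distal, the nearest shared region inside was the weak Eomes promoter region at 470 bp. The nearest outside were at 1323 bp in Golga4, 1495 bp before Eomes, 1560 bp at Tbkbp1 and 1568 bp in Osbpl7. These are distances to coding starts, and the Osbpl7 region lay 62 bp past a start of another type. Distal regions near the microRNA gene Mir7235 and near Gm33460 also lay within 1000 bp of a noncoding start.

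Set beside all protein-coding genes, both genes had promoters of low signal and windows rich in distal regions. A promoter region in both libraries was found for 62.8% of 21938 coding genes. Among the 13778 genes that had one, the Tbx21 promoter stood at percentile 19.02 and that of Eomes at percentile 16.7, and the median gene had a signal of 11.2. Counted in the same way, Tbx21 had 7.68 distal regions per 100 kb (percentile 91.6) and Eomes 6.49 (percentile 85.2), against a median of 3.06. Other lists had signals and distal densities like these. T cell markers had a median promoter signal of 5.88 and 8.83 distal regions per 100 kb, and factors of other lineages 6.74 and 5.62. By −log10 q most T cell marker promoters were higher than those of Tbx21 and Eomes, such as Cd3e at 145 and 118. Cd2, at 17.7 and 15.9, was lower, as was Thy1 in replicate 2 (41.9). Among 38 genes with a promoter region in both libraries on lists of related genes, those nearest to Tbx21 in mean signal were Ifngr2, Tbx1 and Tbx18 (log2 differences of -0.0045, -0.06 and 0.12). The same 3 were nearest to Eomes, with log2 differences of 0.08, 0.02 and 0.20.

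The other T-box genes, most of which act in embryonic development, ranged from no promoter peak to strong ones. Of 15, 9 had a promoter region in both libraries, close to the 62.8% of all genes. The strongest was Mga, which encodes a repressor that pairs with Max, at 14.0 in replicate 1 and 12.3 in replicate 2. Tbx3 followed at 12.1 and 11.8, then Tbx18 at 7.78 and 7.86, close to the level of Tbx21. The weakest was Tbx2 at 2.83 and 3.33, yet it had 11 distal regions within 50 kb, as did its neighbour Tbx4, and Tbx19 had 10. Tbx4, Tbx6, Tbx10, Tbx22 and T (Brachyury) had no promoter peak by summit, and Tbx5 had 1 in replicate 1 alone (2.40). Counted by any overlap with the 1000 bp around a start, 12 of 15 had one, against 65.0% of all genes.

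Of 13 receptors and factors that act upstream of the pair, 12 had an open promoter in each library, beside 62.8% of all coding genes. The exception by summit, Tcf7, had one in replicate 1 alone (3.65), and by overlap all 13 had one, beside 65.0% of all genes. Runx3, a partner of T-bet, was strongest at 17.4 in replicate 1 and 15.8 in replicate 2. Ifngr1, a chain of the interferon gamma receptor, had 15.3 and 14.3. The other chain of that receptor, Ifngr2, had 7.72 and 6.66. The chains of the interleukin 12 receptor had 3.65 and 3.63 (Il12rb1) and 8.44 and 9.29 (Il12rb2). Stat4, which carries the signal of that receptor, had 5.06 and 5.51. Distal regions were most numerous around Runx1 (24), Stat4 (21) and Tcf7 (21), whose windows differ in length. Per 100 kb, Tcf7 had 16.1, Stat4 9.54 and Runx1 7.39, and the list's median was 7.59, against 3.06 over all coding genes.

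Among genes known as targets of T-bet or Eomesodermin, 9 of 14 had a promoter region in both libraries, a share near the 62.8% of all coding genes. Gzmb, which encodes granzyme B of cytotoxic granules, was strongest at 14.3 in replicate 1 and 12.8 in replicate 2. Il18r1, a chain of the interleukin 18 receptor, had 11.5 and 11.4, and Zeb2, a factor induced by T-bet, had 9.84 and 10.2. Ifng, Gzma, Il18rap, Klrg1 and S1pr5 had none by summit, while by overlap Ifng and Il18rap had one and the count was 11 of 14, beside 65.0% of all genes. Ifng, the interferon gamma gene, still had 12 distal regions within 50 kb, Fasl had 13 and Gzmb had 8. All 8 factors of other lineages had a promoter region in both, beside 62.8% of all genes. Prdm1, the gene of Blimp-1, led at 13.1 and 13.7, then Gata3, the T helper 2 factor, at 11.3 and 10.8 and Foxp3 of regulatory T cells at 9.65 and 8.93. Distal regions were most numerous around Prdm1 (14), Bcl6 (8) and Bhlhe40 (8), or 7.32, 6.46 and 7.53 per 100 kb. By signal the promoters of Tbx21 and Eomes thus lay below those of Prdm1, Gata3, Foxp3 and Id2 (9.12 and 9.31) in both libraries. They lay above those of Bcl6 (3.96 and 3.63), Bhlhe40 (4.01 and 4.23) and Zbtb7b (4.47 and 4.07). The order by −log10 q differed. Bhlhe40 had 194 and 159 and Zbtb7b 138 and 83.8, against 54.7 and 43.0 for Tbx21, while Bcl6 stayed lower at 45.1 and 27.2. This is an order of signal values, not of expression, which was not measured.

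**Figure D3:**
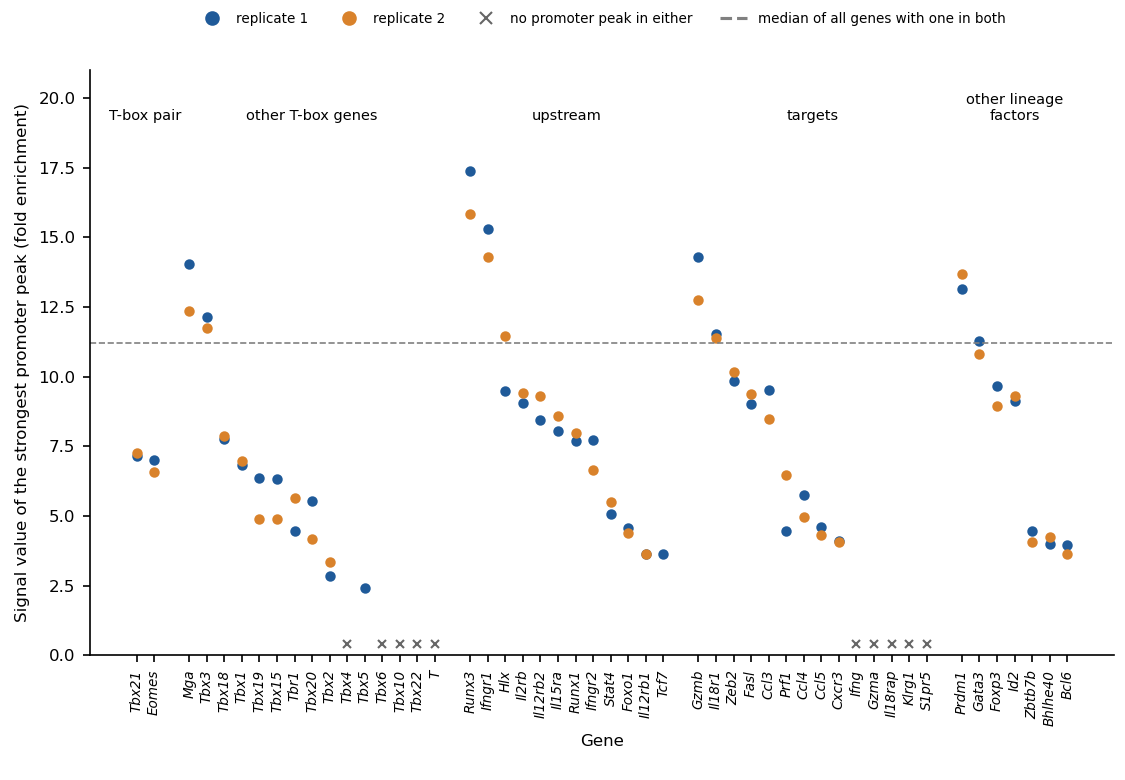
Signal value (vertical, fold enrichment) of the strongest promoter peak of each gene in replicate 1 (blue) and replicate 2 (orange), for Tbx21 and Eomes, the other T-box genes, upstream receptors and factors, targets, and factors of other lineages, with 2 genes of these lists not drawn. Crosses are genes with no promoter peak in either library and the dashed line is the median of all genes with a promoter region in both, 11.2; Tbx21 and Eomes lie near 7, below that line in both libraries.

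The cell type in the labels was checked by promoters, where 62.8% of all coding genes had a promoter region in both libraries by summit and 65.0% by overlap. Of 10 T cell markers, 9 had an open promoter in each library, and Cd247 had none by summit but one by overlap. Of 6 natural killer cell markers 2 had one, Klrb1c at 4.48 in replicate 1 and 6.11 in replicate 2 and Klrk1 at 5.30 and 5.94. Klrd1 had a promoter peak in replicate 1 alone (4.11, −log10 q 9.14). Since natural killer cells use both T-box factors, their part in the Tbx21 and Eomes signal was not tested. Of 5 B cell markers, Pax5 alone had one (10.6 and 9.96), and Cd79b had a peak in replicate 2 alone (3.18). Of 5 myeloid markers none had one in both libraries by summit. Cd14, a myeloid marker, had a promoter peak of 9.03 (−log10 q 79.4) in replicate 1 and a region in both by overlap. An accessible promoter does not show expression, and the mean over many cells cannot tell all cells open a little from a few cells wide open.

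The motif letters at the summits of the 21 shared regions were counted beside all 66847 shared regions. AP-1 was found in 6 of them, all distal, against 18.1% of all shared regions and 22.0% of distal ones. Of the 16 distal members, 4 with AP-1 lay around Tbx21 and 2 around Eomes. ETS was found in 5, 3 of them promoters, against 17.1%. NFAT was found in 4, all distal and around Tbx21, against 9.79%, but in the 200 bases at the summits it was found in 6, of which 2 lay around Eomes. NF-kB and CTCF were found in 2 each, around Tbx21, against 7.93% and 4.64%. With 200 bases NF-kB was also found in 1 region around Eomes, and at the summits of replicate 1 so was CTCF. T-box (1.79%), RUNX (12.2%), STAT (4.26%), GATA (3.44%), TCF/LEF CTTTGAA (2.64%), E-box (6.57%) and SP/KLF (11.2%) were found in 1 region each, and IRF (3.98%) in none. With 21 regions and 13 motifs these counts are descriptions, and none was tested. At the summits of replicate 2 in place of the strongest, the T-box letters were also in the weak region 1495 bp before Eomes, so 2 regions held them.

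**Figure D4:**
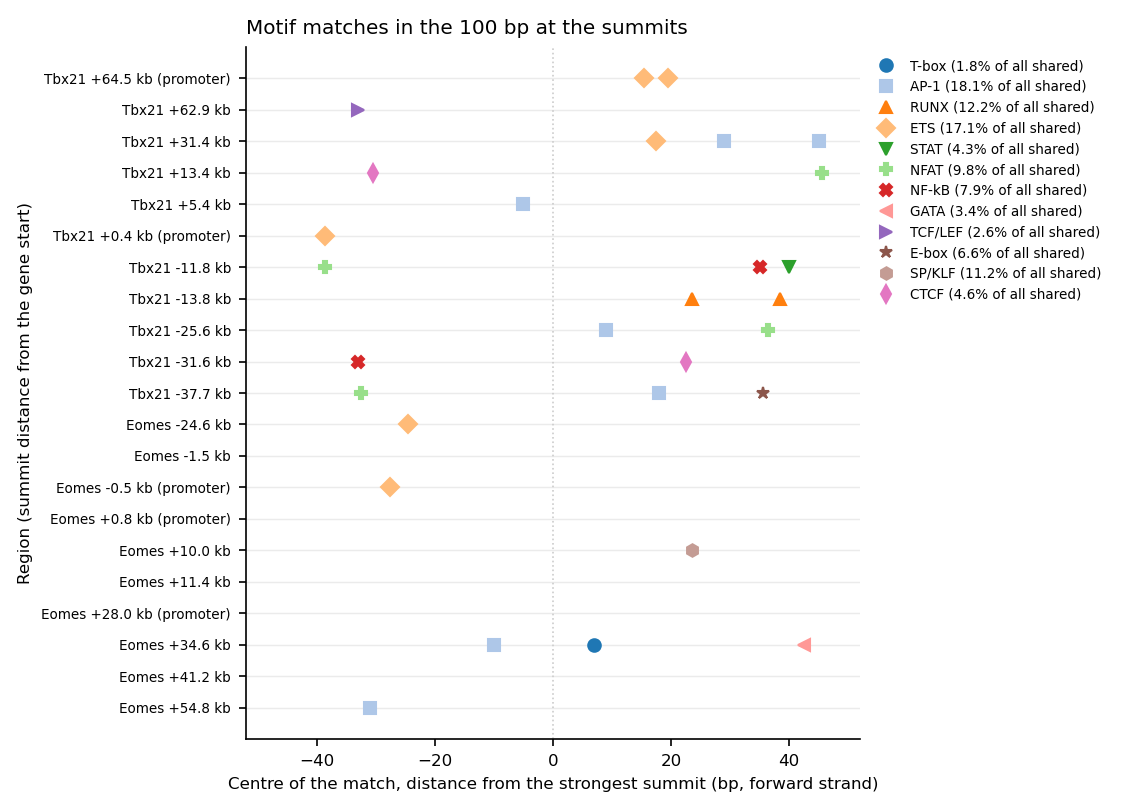
Positions of motif matches (horizontal, bp from the strongest summit on the forward strand) in the 21 regions found in both libraries, in genome order for Tbx21 and for Eomes. Each symbol is 1 match to the letters of a motif and the legend gives the share of all 66847 shared regions that hold it; the AP-1 matches of 6 distal regions and the lone T-box match, 34.6 kb past the Eomes start, can be read off.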

How the data were processed

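The deposited peak lists of 2 libraries of mouse T cells were analysed, 1 list per library. Both the assay, ATAC-seq, and the build, mm10, are as given in the labels. The authors' aligner, peak caller, versions and threshold are not given in the sources used here. No step of shifting reads could be checked. The deposited signal value is a ratio, read as fold enrichment from its values. The deposited −log10 p and −log10 q were taken as given, and the deposited score was not used. No scaling between libraries is stated, so values describe each list. Depth is unknown; the lowest −log10 q values listed were 1.02 (replicate 1) and 1.01 (replicate 2). Peaks off chromosomes 1 to 19, X and Y (88 and 80) were dropped.

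Python 3.11.15, numpy 2.4.6 and scipy 1.17.1 were used. Peaks overlapping by 1 bp were merged. Starts were 54433 protein-coding starts of GENCODE mouse release M21. Intervals are exact Clopper-Pearson. Overlap and merging were tested on simulated peaks. Members, gene lists and motifs were chosen with earlier results of these data known. Genes named from a list are its 3 strongest promoters, the 3 with most distal regions and those with no promoter region in both libraries. Others (Il12rb1, Il12rb2, Tbx2, Id2, Zbtb7b, Cd3e, Cd2, Thy1, Cd14 and the natural killer cell and B cell markers) were named after their values were seen. Counts cover whole lists, but the values of 2 list genes are not reported here.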

Additional observations from a re-analysis of the deposited data

How the results depend on the processing

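Of 53 alternatives for the main counts and values, 43 kept them, counts within 1.5 times, signals within 1 SD and shares of peaks within their exact interval. With 2 libraries, either value always lies within 1 SD of their mean, so the promoter signals of a single library could not count as changed. Nor could the Tbx21 signal change with the gene's 5′ end alone, since Tbx21 has 1 coding start. A −log10 q of at least 5 could not change either promoter signal, since both promoter peaks lay far above it. With 20 kb flanks the Tbx21 window held 6 shared regions (5 distal) and the Eomes window 5 (3 distal), and 92.3% of Tbx21 peaks were found in both libraries in place of 75.9%. With 100 kb flanks Tbx21 had 21 (15 distal) and Eomes had 11 distal. Starts of genes of every type, in place of coding starts, left 7 distal regions around Tbx21 and 5 around Eomes. With the 50000 strongest peaks of each library, Eomes kept 4 shared regions (2 distal), since most of its regions were weak. Either library alone gave 14 to 15 regions around Tbx21 and 11 around Eomes, counts that include its peaks absent from the other library. The promoter signals were 7.17 to 7.26 (Tbx21) and 6.57 to 7.01 (Eomes) in either library alone, and the other alternatives that gave a value left the means at 7.21 and 6.79. With a limit of 500 bp Tbx21 gave no mean, and this alternative is not among the 53. Its summit lay 514 bp past the start in replicate 1 and 364 bp in replicate 2. Of 39 motif alternatives, 33 kept the count within 1.5 times; using the summit of 1 library was chosen after seeing the data. No paired analysis was possible because there is 1 group. Unknown depth limits all absences.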
